A study of Homo sapiens with 48 samples.

Results

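Acetylation of histone H3 at lysine 27 (H3K27ac), a mark of active promoters and enhancers, was compared between L3.6pl cells given TWEAK for 30 min and cells given vehicle. The members were the H3K27ac regions of both conditions on chromosomes 1 to 22 and X. A TWEAK region with no base in common with a vehicle region was called gained, a vehicle region with no base in common with a TWEAK region was called lost, and the others were called kept. Of the 55784 TWEAK regions, 9794 were gained and 45990 kept. Of the 59855 vehicle regions, 14731 were lost and 45124 kept.

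L3.6pl is an established human line of pancreatic ductal adenocarcinoma (PDAC). The cells received TWEAK at 10 ng/ml for 30 min or PBS as vehicle, for which no duration was given. Each condition comprised 3 replicates, which the authors merged into 1 list of broad MACS2 regions. The 6 samples belong to a series of 48 samples that also maps RELA, RELB and FOSL1 in the same line.

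TWEAK (TNFSF12) is a cytokine of the TNF family that binds the receptor Fn14 (TNFRSF12A). The receptor can activate the canonical NF-κB pathway, in which RELA enters the nucleus and binds DNA within minutes, and the noncanonical pathway, in which the kinase NIK (MAP3K14) is stabilised and p100 (NFKB2) is slowly processed so that RELB can act. FOSL1 is an AP-1 subunit that occupies many enhancers of epithelial tumour cells.

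With 1 merged list per condition there was no replicate check, and no p-value was computed. Intervals are exact 95% binomial intervals over regions, cover counting error only and say nothing of how far replicates varied. The read depth behind the lists is unknown, and depth, the calling threshold and a change in the mark cannot be told apart from a list of regions. The fold enrichment is the authors' ratio of ChIP over input, averaged over a broad region.

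Sequences are shown for gained regions, outside tandem repeats, that met a RELA region called after 30 min of TWEAK and absent from the RELA vehicle list, because these are the places where a new RELA region and a new H3K27ac region coincide. They were read from the plus strand of hg38 around the RELA summit, 5′ to 3′, and capitals mark matches to the NF-κB consensus, searched on both strands. Of 12 such regions, those nearest to a gene with a symbol and with a match within 70 bp of the summit are shown, and at BBC3 and CDC20B the summit itself lay just outside the gained region. Where the stretch touched an annotated exon, as at IL32 and CDC20B, only the site with a few bases on either side is given.
TNFAIP3, chr6:137873431-137873570: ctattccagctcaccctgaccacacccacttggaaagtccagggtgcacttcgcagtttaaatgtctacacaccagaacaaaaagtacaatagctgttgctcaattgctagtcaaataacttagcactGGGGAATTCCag
IL32, chr16:3065295-3065323: ctgtactcaGGGAGTTTCCCcagccagct
GALNT18, chr11:11622253-11622392: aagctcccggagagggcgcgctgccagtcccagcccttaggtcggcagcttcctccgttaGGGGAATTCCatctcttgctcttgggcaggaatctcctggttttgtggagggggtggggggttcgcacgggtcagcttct
BBC3, chr19:47231295-47231434: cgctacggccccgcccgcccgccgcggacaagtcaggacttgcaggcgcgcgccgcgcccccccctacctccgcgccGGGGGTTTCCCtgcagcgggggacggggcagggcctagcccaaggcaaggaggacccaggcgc
MLF1, chr3:158421044-158421183: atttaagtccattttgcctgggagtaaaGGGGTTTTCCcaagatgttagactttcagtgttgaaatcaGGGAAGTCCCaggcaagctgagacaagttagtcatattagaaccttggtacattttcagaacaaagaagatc
CDC20B, chr5:55173221-55173249: agtcggcgcGGGAATCCCCCtcgccggct
IDH3A, chr15:78113259-78113398: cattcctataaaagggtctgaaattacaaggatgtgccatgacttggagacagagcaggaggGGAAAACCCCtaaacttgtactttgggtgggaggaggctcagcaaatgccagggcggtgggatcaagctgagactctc
UACA, chr15:70770845-70770984: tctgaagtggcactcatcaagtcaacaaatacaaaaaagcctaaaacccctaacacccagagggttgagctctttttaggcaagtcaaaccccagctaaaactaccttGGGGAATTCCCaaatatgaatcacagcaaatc

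The gained region with the fold enrichment of 3.40 lay in an intron of TNFAIP3 (ENSG00000118503), which encodes the deubiquitinase A20, an NF-κB feedback inhibitor. It spanned 1328 bp at chr6:137872843-137874170, 5629 bp from the gene start, and was 4622 bp from the nearest vehicle region. The RELA region within it had a fold enrichment of 7.32, and its NF-κB match began 58 bp after the RELA summit. H3K27ac was also called there after TWEAK for 6 h at a fold of 2.02, after TNFα for 30 min at 2.82 and after TNFα for 6 h at 1.66. The same locus held 3 lost regions within 50 kb of the start, and its promoter domain was kept, with 1579 bp in vehicle and 1653 bp after TWEAK.

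IL32 (ENSG00000008517), which encodes a proinflammatory cytokine, had a gained region over its start at chr16:3064989-3065759, with a fold of 3.07. RELA there had a fold of 8.06, and H3K27ac was called in the other treated lists at 3.05 (TWEAK 6 h), 3.13 (TNFα 30 min) and 2.88 (TNFα 6 h). The promoter region of GALNT18 (ENSG00000110328), which encodes a GalNAc-transferase-like protein, was the strongest of these with a fold of 4.65 at chr11:11622313-11622664, beside a RELA fold of 9.88. It was called in the other treated lists at 3.64, 4.85 and 4.66, in the same order, and lay 347 bp from a vehicle region. At BBC3 (ENSG00000105327), which encodes the proapoptotic protein PUMA, the gained intronic region at chr19:47231426-47231652 had a fold of 2.49, a RELA fold of 8.63 and no call after TWEAK for 6 h. It lay 564 bp from a vehicle region.

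Outside tandem repeats, 23 gained regions overlapped a RELA region of 30 min of TWEAK, and in 12 of them the RELA region was absent from the RELA vehicle list. The 12 of highest RELA fold were nearest to KIF5C (21.4), SLCO3A1 (13.1), LONRF2 (12.8), SYNPO (11.5), STK11 (11), FAM167A (10.0), GALNT18 (9.88), ENSG00000288626 (9.0), BBC3 (8.63), CCDC8 (8.56), IL32 (8.06) and MLF1 (7.91), where the values are RELA fold enrichments. At KIF5C RELA was as strong in vehicle (fold 21.4), while at SLCO3A1 it was 6.96 and at SYNPO 7.65 in vehicle. Of the 23 regions, 16 were also called in the TNFα 30 min list, 17 in the TNFα 6 h list and 9 in the TWEAK 6 h list, and 8 were called in all of them. Those H3K27ac lists are read against the same vehicle list, so the calls are not independent of each other. For 7 of the 23 the nearest vehicle region was within 1 kb, and for 7 the nearest gene start was over 100 kb away. The regions nearest to TPTE and OR11H1 lay 1714245 and 3710274 bp from the gene start. RELA folds there were 7.91 and 5.31 after TWEAK, and 7.68 and 4.82 in vehicle.

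**Figure D1:**
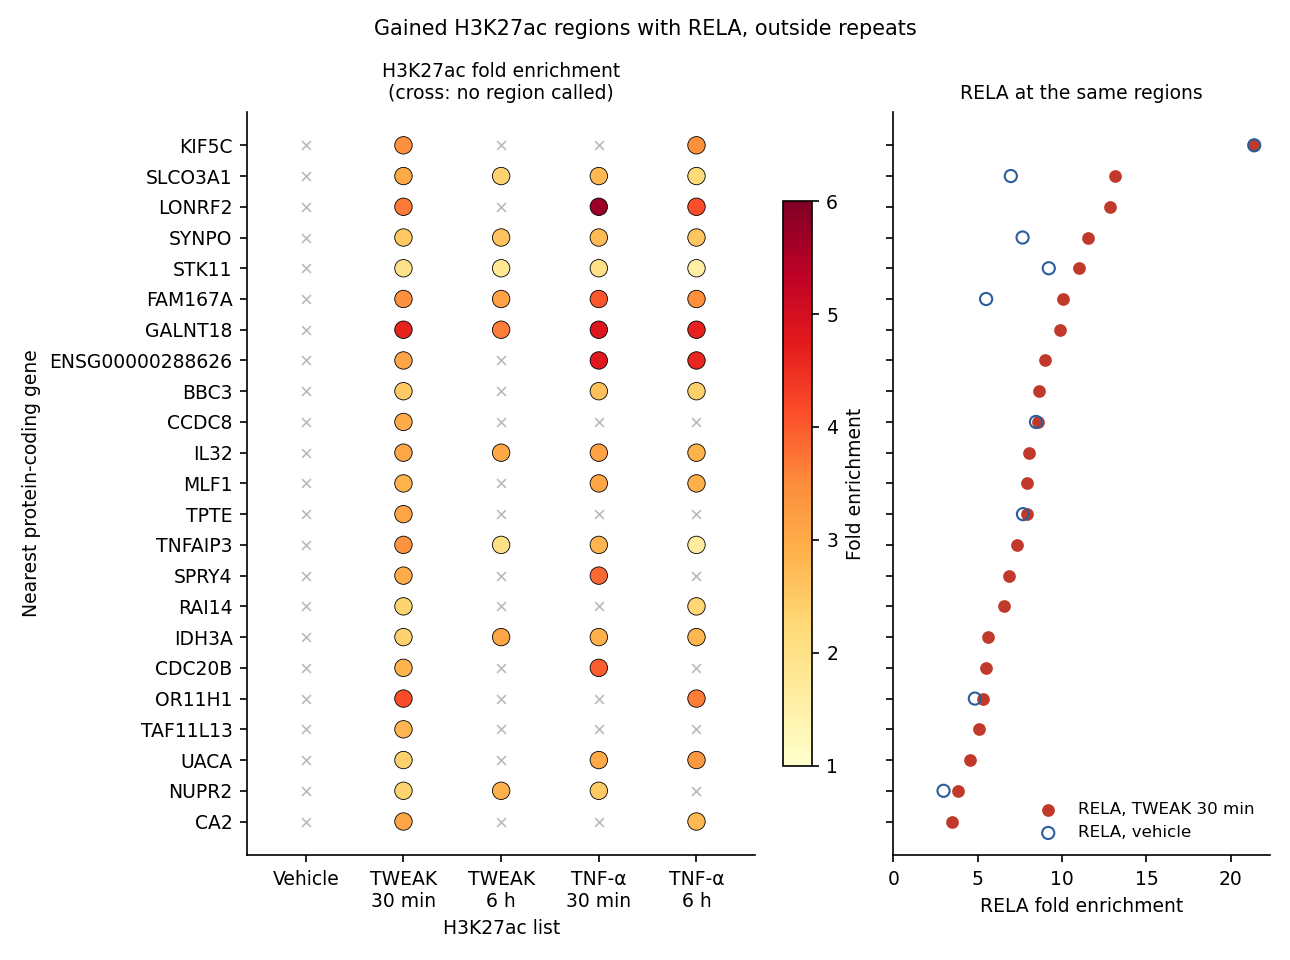
The 23 gained H3K27ac regions with RELA outside tandem repeats, 1 row each, named by the nearest protein-coding gene and ordered by RELA fold enrichment. Left, the colour gives the H3K27ac fold enrichment in each of the 5 lists and a cross means that no region was called; right, RELA fold enrichment after TWEAK for 30 min (filled) and in vehicle (open, 9 regions). At LONRF2 and SPRY4 a vehicle RELA region met the TWEAK RELA region but not the H3K27ac region, so no open symbol is drawn. By the rule no region has a vehicle H3K27ac call, and GALNT18, IL32, TNFAIP3 and IDH3A are called in every treated list without RELA in vehicle.

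Among lost regions outside repeats, 5 overlapped a RELA region, nearest to SPATA5, ENSG00000289325, ITGAM, ENSG00000258790 and CA2, with RELA folds of 14.6, 11.1, 9.08, 6.08 and 3.29. Their vehicle H3K27ac folds were 3.39, 3.45, 3.19, 1.84 and 2.36. The RELA regions near ENSG00000289325 and ENSG00000258790 were absent from the RELA vehicle list. Each of the 5 lost regions also overlapped a RELA region of TNFα 30 min, and 3 of them were called for H3K27ac in the TNFα 30 min list. Over all lost regions outside repeats, 18.3% were called in that H3K27ac list.

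The reverse view starts from RELA. With repeats included, the RELA list held 2777 regions after 30 min of TWEAK and 2971 in vehicle. The authors describe no recruitment of RELA after TWEAK. A new RELA region here is only one absent from the vehicle list, and vehicle RELA regions absent after TWEAK are not given. Outside tandem repeats, the RELA list of 30 min of TWEAK held 683 regions on the chromosomes used, of which 383 were absent from the RELA vehicle list. Of these 383, 234 (61.1%, 56.0 to 66.0) overlapped H3K27ac in both lists, 27 (7.05%, 4.70 to 10.1) in the TWEAK list alone, 21 (5.48%, 3.43 to 8.26) in the vehicle list alone and 101 (26.4%, 22 to 31.1) in neither. The intervals of TWEAK alone and vehicle alone overlapped. Of the 300 RELA regions that were also in the RELA vehicle list, 16 were acetylated in the TWEAK list alone and 11 in the vehicle list alone. New RELA regions that met a FOSL1 region were acetylated in both lists in 69.5% (63.6 to 75) of 266 cases, against 41.9% (32.8 to 51.4) of 117 without FOSL1. The NF-κB consensus stood in the 200 bp around the summit in 67.4% (62.4 to 72.0) of the new RELA regions and in 65.3% (59.7 to 70.7) of those also in vehicle.

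Tandem repeats weighed on these counts. A region was placed in a tandem repeat when the 1000 bp around its centre matched itself at a shift of 1 to 400 bp beyond a self-match of 0.4. Of the gained regions 16.1% (15.4 to 16.8) lay in such sequence, against 4.86% (4.67 to 5.06) of kept TWEAK regions and 3.54% (3.25 to 3.85) of lost regions. With repeats included, RELA overlapped 368 gained regions (3.76%, 3.39 to 4.15) and 103 lost regions (0.699%, 0.571 to 0.847). Of the 368, 345 were in repeats, so the RELA share of gained regions outside repeats was 0.280% (0.177 to 0.420). Among the 23 regions outside repeats, those nearest to BBC3, STK11 and NUPR2 had a self-match of 0.398, just under the limit. Repeats with a unit over 400 bp were not screened for. The strongest gained regions in repeats were at chr8:11456757-11457017 in an intron of FAM167A (fold 4.96), at chr5:48707593-48707833 (4.93) and at chr19:26835306-26835545 (4.64), the latter pair over 1 Mb from any protein-coding gene start. RELA was called in vehicle at the latter pair too, at folds of 8.19 and 6.17. Whether reads were placed correctly in repeats was not tested. The values below are for regions outside repeats unless stated otherwise. Repeats are included in the covered Mb, the counts at the rule's limit, the promoter counts of genes and gene lists, and the promoter domains. They are also included in the comparison of settings, except where it says otherwise.

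The background was large. Of all TWEAK regions 17.6% were gained and of all vehicle regions 24.6% were lost, and outside repeats the shares were 15.8% (8218 of 51973) and 24.9% (14209 of 57102). There were 0.665 gained per lost region (0.648 to 0.682), and 0.578 (0.563 to 0.594) outside repeats, while in repeats gained regions outnumbered lost ones 3.02 to 1 (2.73 to 3.34). The TWEAK list covered 46.9 Mb and the vehicle list 55.5 Mb, with 39.5 Mb in both. Of the 16.0 Mb in vehicle alone, 6.51 Mb lay in lost regions and 9.48 Mb at the edges or in gaps of kept ones. Of the 7.39 Mb in TWEAK alone, 3.48 Mb lay in gained regions. At the rule's limit, the nearest gained and lost regions touched a region of the other list with no base between them, and 365 gained and 393 lost regions were within 200 bp of one, while 1576 kept TWEAK and 1560 kept vehicle regions shared under 200 bp.

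Gained and lost regions were short and weak. The median length was 307 bp for gained, 364 bp for lost, 860 bp for kept TWEAK and 1050 bp for kept vehicle regions. The median fold was 2.60 for gained regions, against 3.16 for kept TWEAK regions, and 2.66 for lost regions, against 3.26 for kept vehicle regions. In the lowest decile of the vehicle list by fold enrichment 35.0% (33.8 to 36.3) of regions were lost, in the second decile 45.7% (44.4 to 47.0) and in the highest decile 1.00% (0.762 to 1.30). In the TWEAK list the gained share fell from 33.8% (32.5 to 35.1) in the second decile to 0.212% (0.106 to 0.379) in the highest. In each decile the lost share was above the gained share.

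**Figure D2:**
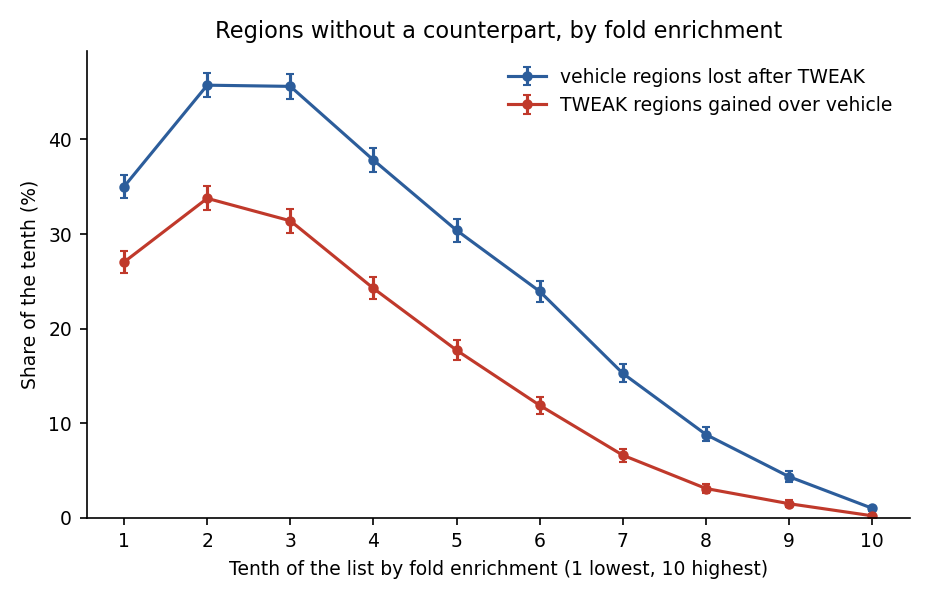
Share of regions outside tandem repeats without a counterpart in the other list (y axis, percent), by decile of the list by fold enrichment (x axis), for vehicle regions lost after TWEAK (blue) and TWEAK regions gained (red). Bars are exact 95% binomial intervals; both shares fall to 1.00% and 0.212% in the strongest decile.

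Of gained regions 3.18% (2.81 to 3.58) and of lost regions 3.54% (3.24 to 3.86) came within 1 kb of the start of a protein-coding gene, against 24.2% (23.8 to 24.6) of kept TWEAK and 24.3% (23.9 to 24.7) of kept vehicle regions. FOSL1 overlapped 8.26% (7.68 to 8.88) of gained and 27.6% (26.9 to 28.4) of lost regions, against 59.2% (58.7 to 59.6) and 62.2% (61.7 to 62.7) of kept regions in the TWEAK and vehicle lists. The FOSL1 list was made in vehicle only. RELA after TWEAK overlapped 0.0352% (0.0114 to 0.0821) of lost and 1.03% (0.934 to 1.13) of kept TWEAK regions, so that outside repeats its share of gained regions was below that of kept ones and above that of lost ones. With repeats included the order against kept regions turned, with RELA at 3.76% of gained and 3.19% (3.03 to 3.35) of kept TWEAK regions. Kept regions were longer, which gives any other list more bases to meet. In windows of equal length, 200 bp around the region's centre, the AP-1 motif TGANTCA stood in 8.31% (7.72 to 8.93) of gained, 12.4% (11.9 to 13.0) of lost, 11.9% (11.6 to 12.2) of kept TWEAK and 12.5% (12.2 to 12.9) of kept vehicle regions. The NF-κB consensus stood in 2.81% (2.46 to 3.19) of gained, 3.51% (3.22 to 3.83) of lost and 4.71% (4.52 to 4.92) of kept TWEAK windows. Both motifs were searched on both strands and a match of one may overlap a match of the other.

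**Figure D3:**
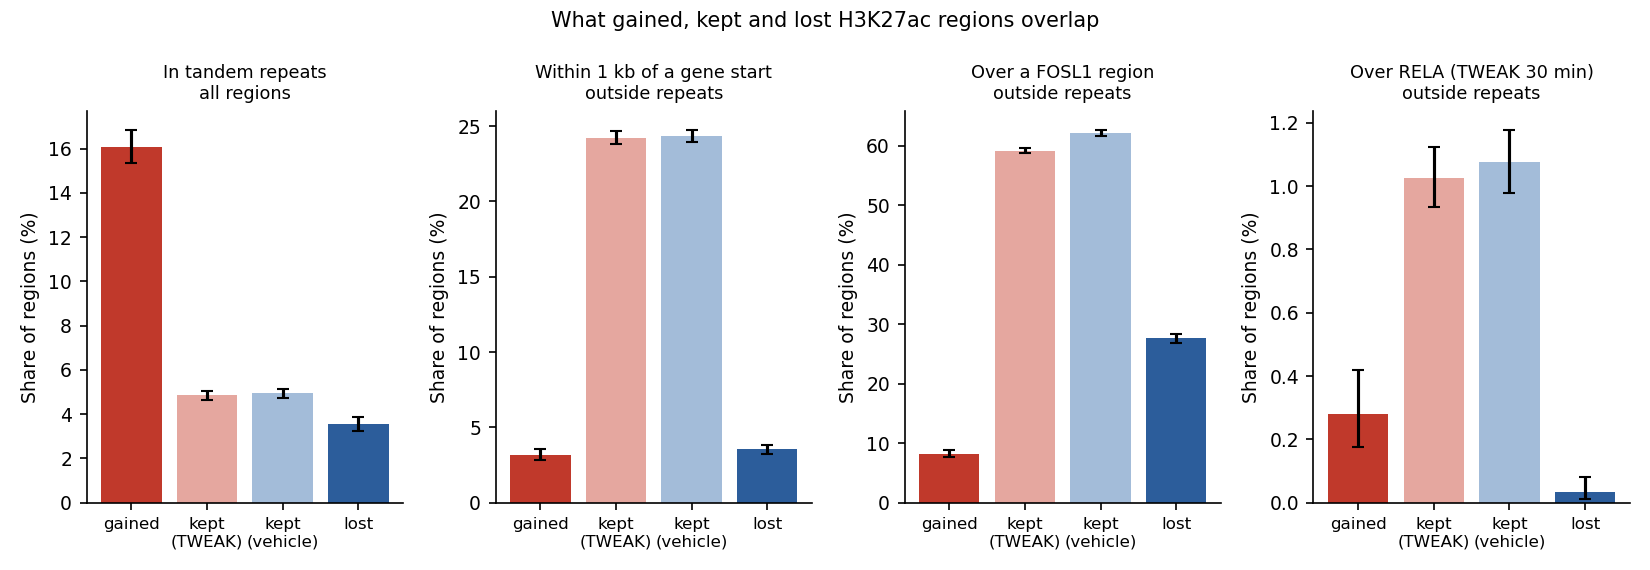
Share of gained, kept and lost H3K27ac regions (y axes, percent) that lie in tandem repeats (all regions) or, outside repeats, within 1 kb of a protein-coding gene start, over a FOSL1 region or over a RELA region of 30 min of TWEAK. Error bars are exact 95% binomial intervals; gained regions have the largest repeat share (16.1%) and the smallest FOSL1 share (8.26%).

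The FOSL1 difference was also seen among regions of comparable fold enrichment, whose length was not held fixed. In the middle of the lists, at the fifth decile, 3.56% (2.85 to 4.38) of TWEAK regions with FOSL1 were gained and 30.0% (28.3 to 31.7) of those without it. In the same decile of the vehicle list 20.6% (19.2 to 22.2) of regions with FOSL1 were lost and 40.3% (38.5 to 42.1) of those without it. For promoters the lost shares in that decile were 12% (9.34 to 15) at gene starts and 32.3% (31.0 to 33.6) elsewhere.

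The 10 gained regions of highest fold ranged from 4.59 to 5.66 and from 242 to 996 bp. The strongest was at chr21:38831810-38832235, 26627 bp from ETS2, which encodes an ETS factor, and was also called after TWEAK for 6 h (3.91), TNFα for 30 min (4.05) and TNFα for 6 h (4.27). The second covered the start of EGR4, which encodes an immediate early zinc finger factor, over 996 bp with a fold of 5.42, and was called after TNFα for 30 min at 5.37. A FOSL1 region of fold 21.1 lay within it in vehicle. The others were nearest to ESRRG, FAM76A, MAP10, CHST9, FAM241B, GALNT18, KDM2B and CRYL1. Of the 10, 9 were called in the TNFα 30 min list, 6 in the TWEAK 6 h list and 5 in the TNFα 6 h list. The 5 longest gained regions, of 1613 to 1943 bp, were nearest to MAML2, ANXA2, PDLIM5, MYOM2 and CSNK2A3, and all 5 were called in the TNFα 30 min list, none in the TNFα 6 h list.

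The 10 lost regions of highest fold ranged from 5.45 to 7.72. The strongest was in an intron of CYRIA at chr2:16608757-16609238, and was called again after TWEAK for 6 h (5.36) and TNFα for 6 h (4.88). The others were nearest to CDH8, GOLGA6D, POLR3K, WTAP, CT83, DMRTA1, RAB28, WDSUB1 and EHF, several of them over 100 kb away. All 10 were called in both 6 h lists and 4 in the TNFα 30 min list. The 5 longest lost regions, of 1917 to 2161 bp, were nearest to HNRNPA1L3, RPL7, KLF13 and, for a pair of them, SIGLEC15. They too were all in both 6 h lists, and 2 were in the TNFα 30 min list.

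Over all members outside repeats, 39.0% (37.9 to 40.0) of gained regions were called in the TNFα 30 min list, 23% (22.1 to 24) in the TNFα 6 h list and 18.2% (17.4 to 19.1) in the TWEAK 6 h list. Of lost regions 18.3% (17.7 to 19.0) were called in the TNFα 30 min list, 57.0% (56.2 to 57.9) in the TNFα 6 h list and 44.3% (43.5 to 45.1) in the TWEAK 6 h list. Of kept vehicle regions 89.6%, 94.0% and 92.0% were called in these lists, in the same order. The vehicle list decides gain and loss for each of these lists, and a batch shared by the 30 min samples was not tested and cannot be told apart from the time of treatment.

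Acetylation at gene starts was mostly kept. Of 19970 protein-coding genes, 11464 had H3K27ac within 1 kb of the start in both lists, 191 (0.956%) after TWEAK alone and 431 (2.16%) in vehicle alone. Of the 191, 115 (60.2%, 52.9 to 67.2) were also called after TNFα for 30 min, 68 after TNFα for 6 h and 51 after TWEAK for 6 h, and 4 met a RELA region. Of the 431, 88 (20.4%, 16.7 to 24.5) were called after TNFα for 30 min, 288 after TNFα for 6 h and 260 after TWEAK for 6 h, and 1 met a RELA region. The shares of all acetylated promoters in these lists are not given here, so nothing particular to the 191 or the 431 is read from these counts. Besides EGR4 and IL32, the starts called after TWEAK alone included those of HLA-E and TAP1, which act in antigen presentation, and RIPK1, which encodes a kinase of TNF receptor signalling. At HLA-E the fold was 4.15 after TWEAK for 30 min, 3.93 after TWEAK for 6 h, 4.35 after TNFα for 30 min and 3.07 after TNFα for 6 h. At TAP1 the values were 3.82, 3.46, 4.68 and 3.71, and at RIPK1 the TWEAK 30 min and TNFα 30 min folds were 2.14 and 2.05. These 3 genes were chosen after their values were seen.

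Of 30 NF-κB target and feedback genes, 22 had promoter H3K27ac in both lists, 7 in neither and 1, TNIP1, in vehicle alone. TNIP1, which encodes an A20-binding inhibitor of NF-κB, lost a region of 662 bp and fold 2.48 at its start, but another of its transcript starts was acetylated in both lists. Among the loci displayed as tracks, CXCL8, EFNA1, TNFAIP3, BCL3 and NFKBIA were in both lists and MMP1 in neither. Of the 12 genes of the TWEAK receptor and the noncanonical pathway, 10 were in both and TNFRSF12A and TNFSF12 in neither by the gene start. TNFRSF12A had H3K27ac in both lists at another transcript start. Of 20 immediate early and AP-1 genes, 16 were in both lists, 3 in neither and 1, EGR3, after TWEAK alone. That EGR3 call came from a kept region whose near edge lay at -936 bp from the start after TWEAK and at -1044 bp in vehicle.

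Promoters of epithelial PDAC genes were acetylated in both lists in 12 of 16 cases at the gene start and 15 of 16 at any transcript start. Of 10 housekeeping genes 9 were in both lists and EEF1A1 in neither by the gene start. Of 16 markers of other cell types, 3 (ACTA2, CD68 and COL1A1) were in both, 12 in neither and CD14, a monocyte marker, after TWEAK alone, through a region of 208 bp with a fold of 2.5. By any transcript start PDGFRB was also acetylated after TWEAK alone and PECAM1 in vehicle alone.

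Around the genes, 32.5% of all protein-coding genes had a gained region within 50 kb of the start and 41.0% a lost one. The gained figure was 15 of 30 for NF-κB targets, 6 of 12 for the TWEAK pathway, 12 of 20 for immediate early genes, 7 of 16 for epithelial genes and 3 of 10 for housekeeping genes. The lost figure was 13 of 30, 5 of 12, 10 of 20, 12 of 16 and 6 of 10. Some genes stand in more than 1 list, and nothing particular to a list is read from counts of this size.

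FOS, which encodes the immediate early AP-1 subunit c-Fos, had 6 gained and 0 lost regions within 50 kb. Relative to the start they began at -36403, -35794, -27353, -9734, -2453 and 24431 bp, with folds of 2.44, 2.57, 1.64, 2.56, 1.74 and 2.63. None of the 6 met a FOSL1 region, and 2 of them were called in the TNFα 30 min list, 1 in the TNFα 6 h list and 1 in the TWEAK 6 h list. The kept promoter domain spanned 2483 bp in vehicle and 2934 bp after TWEAK, while its fold was 2.64 and 2.44. DUSP1, a MAP kinase phosphatase, and IER2, an immediate early factor, each had 3 gained and 0 lost regions within 50 kb. Other immediate early genes had more lost than gained regions: JUN (0 gained, 2 lost), JUNB and DUSP5 (1 and 3 each), FOSL2 and SRF (1 and 2 each). The same held for EGR1, EGR3, KLF6 and IER3 (0 and 1 each). Counts summed over the 20 genes of that list were 24 gained and 17 lost. At CXCL8, which encodes interleukin 8, the promoter domain spanned 2652 bp in vehicle and 1986 bp after TWEAK, with folds of 2.44 and 3.19. A RELA region of fold 12.1 lay over the CXCL8 start after TWEAK for 30 min, and none was called there in vehicle. There were 0 gained regions and 1 lost region nearby. At NFKBIA, which encodes the inhibitor IκBα, the promoter domain spanned 2374 and 2387 bp and 2 gained and 0 lost regions outside repeats lay within 50 kb, while another 2 lost regions, of fold 2.64 and 2.19, lay there in tandem repeats.

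**Figure D4:**
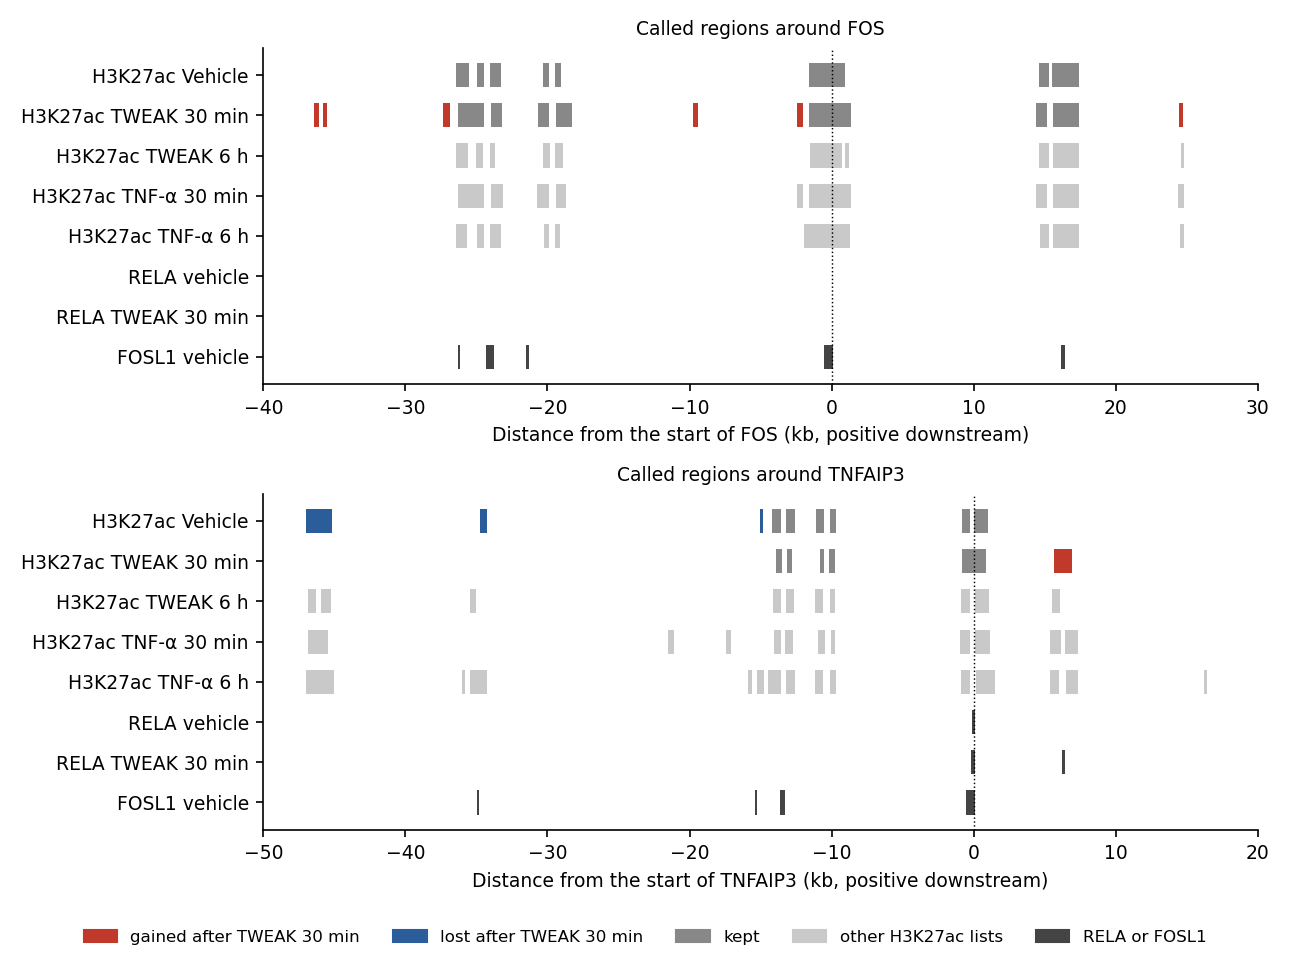
Called regions around FOS (top) and TNFAIP3 (bottom), by distance from the gene start (x axis, kb, positive downstream), in the 5 H3K27ac lists, the RELA lists of vehicle and 30 min of TWEAK, and the FOSL1 list. Bars are regions, to scale; red is gained, blue lost and dark grey kept. At TNFAIP3 the gained region beginning 5629 bp downstream of the start coincides with a RELA region absent from the vehicle list.

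Some loci, chosen after the counts were seen, had many gained or lost regions by nearest gene. No expected count was computed, so clustering was not tested. Of 6658 genes nearest to a lost region, 95 had 10 or more, and of 5078 nearest to a gained region, 6 did. SIK1, a salt-inducible kinase, had 6 gained, 0 lost and 17 kept vehicle regions nearest to it, and AKAP13, a kinase-anchoring protein, had 9 gained, 3 lost and 22 kept. Loci with many more lost than gained regions included NAALADL2 (25 lost, 6 gained), NR5A2 (18 and 0), SPRY2 (17 and 1), ANKRD50 (17 and 1) and FOXD4L5 (27 and 11). Their kept vehicle regions numbered 23, 11, 21, 23 and 37, in the same order. NR5A2 encodes a nuclear receptor of pancreatic acinar cells, and SPRY2 an inhibitor of receptor tyrosine kinase signalling. Of the 18 lost regions of NR5A2, 14 were called in the TNFα 6 h list, 10 in the TWEAK 6 h list and 1 in the TNFα 30 min list. For SPRY2 the numbers were 15, 12 and 3 of 17. Over all lost regions outside repeats the shares were 57.0%, 44.3% and 18.3%, in the same order.

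Kept regions of both lists that overlapped were joined into domains, so that length and fold could be set side by side. Of 41333 domains outside repeats, 30.4% were longer after TWEAK, with a median length of 1092 bp in vehicle and 932 bp after TWEAK and a median log2 length ratio of -0.15 (TWEAK over vehicle). Of the 261 domains that held a RELA region absent from the RELA vehicle list, 47.1% (40.9 to 53.4) were longer after TWEAK, with a median log2 length ratio of -0.02. Of the 215 that held a RELA region also in vehicle, 44.2% (37.4 to 51.1) were longer, with a ratio of -0.03. Of the 40861 without RELA, 30.2% (29.8 to 30.7) were longer, with a ratio of -0.15. Domains with any RELA region numbered 472, so some stood in both RELA groups. The interval of the new RELA domains did not reach that of domains without RELA, and it overlapped that of domains with RELA in vehicle. These intervals count domains, which are not replicates, and domain length was not matched, so no effect of RELA is read from them. Domains with RELA were longer to begin with, with vehicle medians of 1522, 1514 and 1088 bp for new RELA, RELA in vehicle and no RELA. The fold of the strongest region was higher after TWEAK in 55.2% (48.9 to 61.3), 58.6% (51.7 to 65.3) and 46.4% (45.9 to 46.9) of the 3 kinds of domain.

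**Figure D5:**
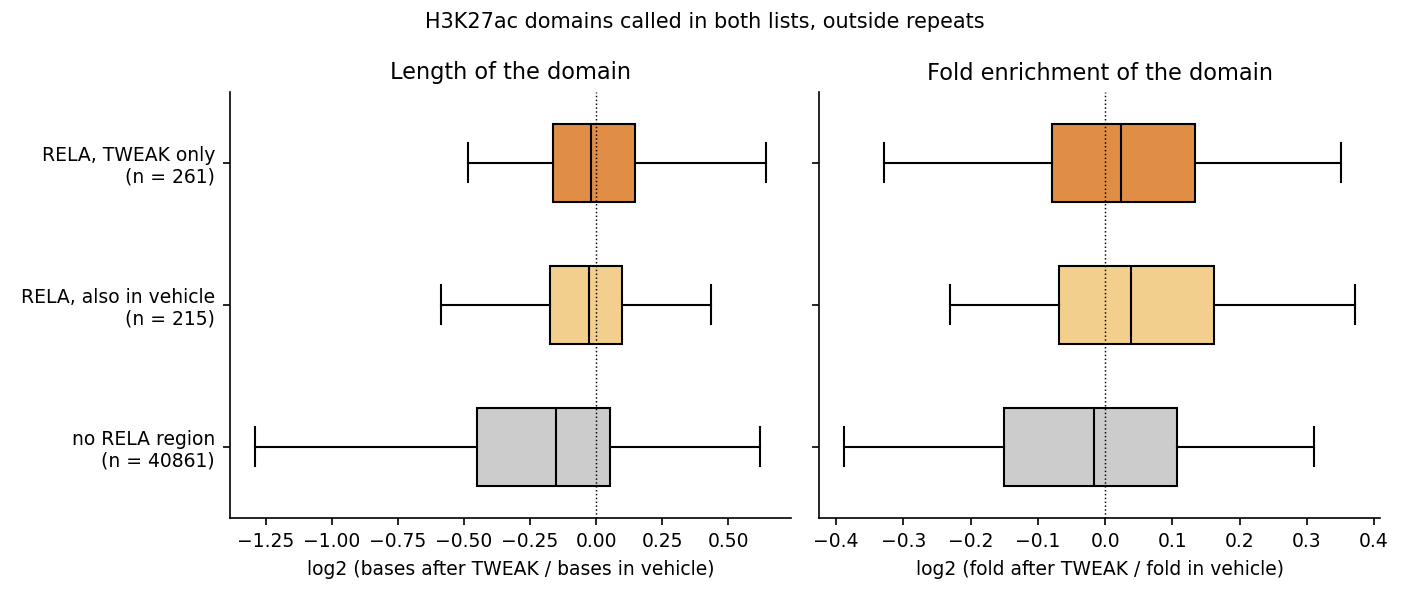
H3K27ac domains called in both lists, outside repeats, split by RELA after 30 min of TWEAK: log2 ratio of the bases called (left) and of the fold enrichment (right), TWEAK over vehicle. Boxes are quartiles with the median, whiskers the 5th and 95th percentiles of the domains. The median length ratio is -0.15 without RELA and -0.02 with a RELA region called after TWEAK only. Some domains stand in both RELA groups.

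The domain at the start of NFKB2, which encodes p100, was among the 10 new RELA domains that lengthened most. It had 2108 bp in 2 vehicle regions and 2845 bp in 1 TWEAK region, at folds of 3.14 and 3.00. Its stronger RELA region, of fold 20.7 after TWEAK, was already called in vehicle at a fold of 11.3. Only a weaker RELA region in it, of fold 7.12, was absent from the vehicle list. The others of the 10 included C1R (331 and 1122 bp), TM4SF1 (1371 and 2040 bp) and CD9 (588 and 1151 bp). Their folds in vehicle and after TWEAK were 4.19 and 3.24, 2.56 and 2.32, and 2.11 and 2.46, in the same order. A longer domain was thus not always a stronger one. The largest shortening in bp among new RELA domains was at KLHL5, with 3236 bp in vehicle and 2274 bp after TWEAK. The folds there were 2.27 and 2.40. These domains, and the list members described singly, were chosen after their values were seen. At promoters in general, with repeats included, 24.4% of domains were longer after TWEAK. In the gene lists 9 of 17 immediate early, 9 of 22 NF-κB, 4 of 10 TWEAK pathway, 3 of 12 epithelial and 2 of 9 housekeeping promoter domains were. MAP3K14, which encodes NIK, had a promoter domain of 785 bp in vehicle and 752 bp after TWEAK, with folds of 2.16 and 3.21. EGR1, an immediate early factor, had 2162 and 2846 bp, with folds of 3.92 and 3.00, so length and fold did not move together.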

How the data were processed

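The authors mapped paired-end reads to hg38 with Bowtie2 2.5.0 and called broad H3K27ac and narrow RELA, RELB and FOSL1 peaks with MACS2 (stated cutoff 0.05, version not given in the sources used here) against input, with 1 merged list for the 3 replicates of a condition. SAMtools 1.18 and deepTools 3.3.2 are named in the submitters' processing notes. Deposited columns used were the fold enrichment (a ratio to input, made by the authors) and the −log10 q value, which in broad lists are averages along each peak, while the −log10 p, score and sub-peak columns were not used. A repeat blacklist and the treatment of multiply mapped reads were not found in the sources used here.

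From the lists, 10 of 16 were used, on chromosomes 1 to 22 and X, with overlaps of at least 1 bp. Groups came from the sample labels. Genes were the 19970 protein-coding genes of GENCODE 44, placed at the gene start with 1 kb on either side as promoter. The nearest gene was taken by distance to the start. Named regions were the 10 strongest, the 5 longest and the up to 12 RELA-bound gained and lost regions outside repeats, the 3 strongest gained in repeats, and all members of 5 gene lists and 2 marker lists. The members and lists were chosen with earlier results of these data known. Computation used scipy 1.17.1, pysam 0.24.0, pandas 2.3.3 and numpy 2.4.6 under Python 3.11.15. Overlap, distance, repeat and motif functions were tested on simulated data and against bedtools 2.31.1. Shares carry exact (Clopper-Pearson) 95% intervals, and medians exact binomial ones for the comparison of settings. No test across replicates was possible with 1 list per group. Alternatives covered a stricter q, the strongest peaks, repeats, other overlaps, promoters and RELA windows. Some loci are not reported here.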

Additional observations from a re-analysis of the deposited data

How the results depend on the processing

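Of 14 results under 10 alternatives, 54 values moved beyond their counting interval or, for counts, beyond 1.5 times, and 24 did not. The results are counts, shares, lengths and a ratio of counts, which have no sign, so a change of sign was not a check. The RELA share of gained regions ran from 0.280% outside repeats to 9.77% at a q of at most 0.001 against the whole other list. The order of the RELA shares of gained and kept regions turned with repeats included. No paired analysis was possible because each group had 1 merged list with no replicate columns, and for the same reason leaving out a replicate was not possible.

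In these settings regions in repeats were included unless stated otherwise. With both lists at a q of at most 0.001 there were 4720 gained regions, 76.7% of vehicle regions were kept and 0.462 were gained per lost. Median lengths were then 375 bp (gained) and 524 bp (lost), promoter shares 4.19% and 5.79%, RELA shares 7.82% and 1.04%, and FOSL1 shares 30.5% and 47.5%, gained first throughout. With regions at that q set against the whole other list, 2477 were gained and 5255 lost, with 88.0% of vehicle regions kept and 0.471 gained per lost, median lengths of 314 and 405 bp, promoter shares of 4.97% and 5.58%, RELA shares of 9.77% and 1.01%, and FOSL1 shares of 29.3% and 41.9%. With the 40000 strongest peaks of each list, 7001 were lost, 82.5% of vehicle regions were kept and 0.945 were gained per lost, with median lengths of 396 and 549 bp, promoter shares of 4.26% and 6.51%, FOSL1 shares of 30.5% and 51.6%, and a RELA share of gained regions of 7.09%.

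With regions within 1 kb counted as kept, 79.3% of vehicle regions were kept, 0.642 were gained per lost, the median lost length was 367 bp, the promoter shares were 1.89% and 3.00%, and the FOSL1 share of lost regions was 29.5%. With an overlap of at least 50% of the region, the kept share was 67.0% and the ratio 0.604. Outside repeats the ratio was 0.578, the median gained length 307 bp, the promoter and FOSL1 shares of gained regions 3.18% and 8.26%, and the RELA shares 0.280% and 0.0352%. The promoter shares were 4.87% and 5.80% with 2.5 kb on either side, and 5.54% and 6.46% with all transcript starts. The RELA share of gained regions was 4.53% within 500 bp. For RELA regions absent from the RELA vehicle list, the RELA shares were 1.42% and 0.217%. Apart from the construction of each alternative, the cause of these shifts was not tested. The depth of the lists is unknown, so a weak region absent from one list may be under its limit of detection.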

Other observations

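The 20 gained regions of highest fold within 1 kb of a gene start, outside repeats and chosen after their values were seen, were led by EGR4 (5.42), FAM76A (4.93), GALNT18 (4.65) and TUBA1C (4.58). At some of them, GALNT18 included, a vehicle region lay beside the gained one, 347 bp away at GALNT18. Over the 20 promoter regions, 19 were called after TNFα for 30 min, 11 after TWEAK for 6 h and 8 after TNFα for 6 h. Of the 20 lost promoter regions of highest vehicle fold, led by VASH1 (5.32), APBB1 (5.01) and LDOC1 (4.76), 4 were called after TNFα for 30 min, 20 after TWEAK for 6 h and 18 after TNFα for 6 h. Over all lost regions outside repeats the shares were 18.3%, 44.3% and 57.0%, in the same order.

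The lost share outside repeats was 12.8% (11.2 to 14.4) on chromosome 19 and between 19.4% and 29.4% on the others. The gained share was lowest on chromosome X, at 10.7% (9.0 to 12.5). Chromosome 19 was the only one with more gained than lost regions outside repeats, with 247 and 229.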
